A study of Mus musculus with 2 samples.

Results

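The class III receptor tyrosine kinases of the mouse are 5 receptor genes, Kit, Flt3, Csf1r, Pdgfra and Pdgfrb. They were selected by gene symbol from the 43346 Ensembl genes of the deposited tables, and all 5 were found. The study holds 2 total RNA-seq libraries of primary cells labelled megakaryocyte progenitor (CFU-Meg), 1 per biological replicate. The mice are labelled as male adults of strain C57BL/6J aged 5 to 6 weeks, with no treatment or transgene named, and each library was made from 1 ng of RNA. The name of the linked isolation protocol gives bone marrow, and no gate is described in the labels. Both libraries carry 1 donor identifier, so nothing shows that they came from separate animals, and spread and p-values cover these samples only. There is 1 group and no contrast, so levels are described in each library and the libraries are set against each other.

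These receptors share an extracellular part of immunoglobulin-like domains, a single membrane span and a tyrosine kinase that an insert divides. A ligand that is itself a dimer joins 2 receptor chains, which then phosphorylate each other and recruit adaptors, lipid kinases and phosphatases. KIT binds stem cell factor and marks stem cells, early progenitors and mast cells. FLT3 marks multipotent progenitors, lymphoid progenitors and dendritic cell precursors, and CSF1R marks monocytes and macrophages. The platelet-derived growth factor receptors PDGFRA and PDGFRB are known from mesenchymal cells, fibroblasts and pericytes.

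Depth was 82746658 and 75652762 expected counts, the estimated reads of a gene when reads that fit several genes are divided among them. Levels are in TPM, a share of all transcripts in the library that corrects for gene length, and are given as mean ± SD over the libraries (n = 2). The label did not match its markers well. Of 10 megakaryocyte markers, 2 reached 1 TPM in both libraries, beside 46.2% of all protein-coding genes. Another 2, Gp6 and Tubb1, were at 0 in both. In the list of 5 neutrophil granule markers, Prtn3 was the lowest of the granule protein genes, at 1424 ± 46 TPM. Ms4a3, which is in that list but does not encode a granule protein, stood at 658 ± 44 TPM. The libraries are therefore called by their label and not by a cell type.

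Kit was the highest of the 5 receptors and Pdgfra the lowest. Kit (ENSMUSG00000005672.8, GRCm38 chromosome 5, 75574916 to 75656722, plus strand) encodes the receptor of stem cell factor. It stood at 64.1 TPM in replicate 1 and 53.5 TPM in replicate 2, from 19235 and 14610 reads. It was higher than 95.6% and 94.5% of the 21474 protein-coding genes in those libraries. Kit alone held 73.7% and 68.6% of the summed TPM of the 5 receptors.

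Csf1r (ENSMUSG00000024621.11, chromosome 18, 61100598 to 61132149, plus strand) encodes the receptor of the growth factors CSF1 and IL34 and came next. It stood at 14.4 TPM in replicate 1 and 19.1 TPM in replicate 2. Its expected counts were 4071 and 5032. It was the one receptor whose level was higher in replicate 2.

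Flt3 (ENSMUSG00000042817.13, chromosome 5, 147330741 to 147400489, minus strand), the receptor of FLT3 ligand, stood at 5.85 TPM in replicate 1 and 3.69 TPM in replicate 2, from 1293 and 754 reads. Pdgfrb (ENSMUSG00000024620.7, chromosome 18, 61045150 to 61085061, plus strand) stood at 2.60 and 1.67 TPM, from 851 and 508 reads. Both were lower in replicate 2, by the like factors of 1.59 and 1.56. Flt3 was 2.25 times as high as Pdgfrb in replicate 1 and 2.21 times in replicate 2.

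Pdgfra (ENSMUSG00000029231.11, chromosome 5, 75152292 to 75198215, plus strand) was given an expected count of 0 in each library. A count of 0 allows up to 3 reads, which would be 0.0075 TPM in replicate 1 and 0.0081 TPM in replicate 2, and this limit covers counting error only. The deposited upper bounds were 0.012 and 0.013 TPM. Kit was 8531-fold above the TPM of 3 Pdgfra reads in replicate 1 and 6599-fold above it in replicate 2. Against the wider deposited bounds, Kit was at least 5504-fold and 4223-fold higher than Pdgfra. Its paralog Pdgfrb was at least 223-fold and 132-fold higher than Pdgfra by the same bounds, and 346-fold and 206-fold above the TPM of 3 reads.

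The order Kit, Csf1r, Flt3, Pdgfrb, Pdgfra was the same in both libraries. No neighbours in that order had ranges that overlapped over the 2 libraries, nor did the deposited bounds of neighbours overlap within a library. The steps between the members varied more. Kit was 4.45 times as high as Csf1r in replicate 1 and 2.80 times in replicate 2. Csf1r was 2.46 times as high as Flt3 in replicate 1 and 5.18 times in replicate 2. Kit stood 11.0 times above Flt3 in replicate 1 and 14.5 times in replicate 2. The plot of the 5 receptors by library shows these steps on a log scale.

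Reads of Kit, Flt3 and Pdgfrb were lower and reads of Csf1r higher in replicate 2 than in replicate 1. Each gene's reads were compared with the library ratio by an exact two-sided binomial test, adjusted by Benjamini-Hochberg over 14304 genes. This test compares 2 libraries, not conditions, and counts only the error of counting reads. It was passed at an adjusted p under 0.05 by 59.0% of all genes tested, 29.4% as higher and 29.7% as lower in replicate 2. The 4 receptors tested all passed it, 1 as higher and 3 as lower, a share to be read against that background. Pdgfra was too low to be tested.

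The size of the differences was modest. Log2 ratios of replicate 2 over replicate 1 were -0.25 for Kit (adjusted p = 1.6e-53, exact binomial), -0.63 for Flt3 (9.3e-21), -0.59 for Pdgfrb (8.8e-13) and 0.45 for Csf1r (4.4e-49). By the exact binomial test, 0 of the 4 had both an adjusted p under 0.05 and a log2 ratio beyond 1 in size, while 4 of 4 had an unadjusted p under 0.05. Of all genes tested, 7.66% met both criteria and are termed called, 2.62% as higher and 5.04% as lower in replicate 2. Ratios are given with a prior count of 2.

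Set against genes of like level, a comparison chosen after seeing the data, the receptors differed in rank. For Csf1r, among 4218 genes within 2-fold of its mean TPM, 5.88% had an absolute log2 ratio at least as large, and their median was 0.13. For Flt3 the share was 10.2% of 3881 genes, with a median of 0.22. For Kit it was 17.6% of 1882 genes, with a median of 0.12. Pdgfrb lay well within its surroundings, with 26.3% of 3010 genes and a median of 0.33. That the ratio of Csf1r had the other sign was not tested as a difference between genes.

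**Figure D1:**
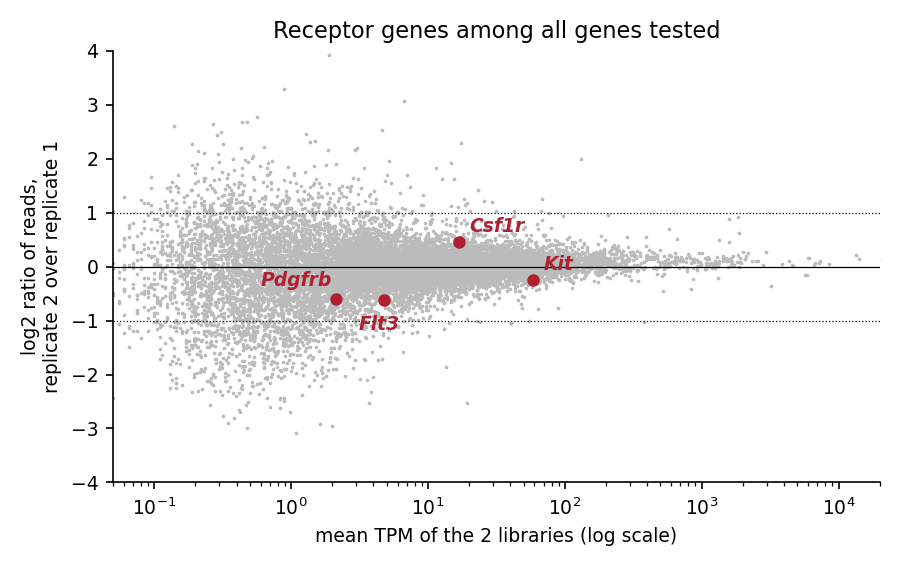
Log2 ratio of reads in replicate 2 over replicate 1 (vertical axis) against mean TPM of the 2 libraries (horizontal, log axis) for all genes tested (grey points), with 4 receptors in red and dotted lines at a log2 ratio of 1 and -1. The receptors lie inside the dotted lines, Csf1r at 0.45 above zero and Kit, Pdgfrb and Flt3 at -0.25, -0.59 and -0.63 below it.

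Markers of cell types that carry these receptors differed between the libraries as well, and their part in the receptor differences was not tested. In bulk RNA, fewer cells of a type and less RNA per cell cannot be told apart. Beside Csf1r, the summed TPM of 10 monocyte and macrophage markers was 2882 in replicate 1 and 3278 in replicate 2. Nearly all of that sum was Ly6c2, at 2767 and 3120 TPM. Of the 8 that could be tested, 6 passed the adjusted p as higher in replicate 2 (29.4% of all genes did) and 0 as lower, and 6 had an unadjusted p under 0.05. Fcgr1 and Mrc1 did not pass, at log2 ratios of reads of 0.08 and 0.13. The TPM of Mrc1 went the other way, at 0.57 in replicate 1 and 0.35 in replicate 2. The lipopolysaccharide co-receptor gene Cd14 had the largest ratio, 1.47, with 4.02 and 10.9 TPM. C1qa and C1qb, complement genes of macrophages, were lower in replicate 2, at 0.23 and 0.10 TPM for C1qa and 0.32 and 0.04 TPM for C1qb, and too low to test.

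Beside Flt3, lymphoid progenitor markers gave sums of 8.21 and 3.71 TPM in replicates 1 and 2. Dntt, the DNA polymerase of antigen receptor joining, stood at 7.12 and 2.09 TPM, with a log2 ratio of -1.71. Il7r, the interleukin 7 receptor gene, stood at 0.35 and 0.08 TPM with a ratio of -1.95, and the B cell regulator Pax5 was at 0 in both. Rag2, of the recombinase of antigen receptor genes, was higher in replicate 2, at 0.70 and 1.41 TPM with a ratio of 0.89, so the list had no single direction. Rag1 and Ebf1 were too low to test, with 13 and 5 reads for Rag1 and 5 and 15 reads for Ebf1. Dendritic cell markers summed to 1.97 and 4.02 TPM. But of the 3 tested, 1 passed the adjusted p (59.0% of all genes did), Clec9a at a log2 ratio of 1.07. Xcr1 and Zbtb46 did not pass, at ratios of 0.20 and -0.10, and Cd209a, with 8 and 60 reads, was not tested.

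Beside Kit, 6 mast cell markers summed to 65.3 and 62.0 TPM, of which Cpa3 gave 53.0 and 51.2 TPM. The mature mast cell proteases Tpsb2 and Mcpt4 were at 0 in both libraries. Stem and multipotent progenitor markers summed to 97.7 and 83.4 TPM, most of it Cd34 at 82.9 and 73.6 TPM. Of the 5 tested, 4 passed the adjusted p as lower in replicate 2 (29.7% of all genes did). These were Cd34, Hlf, Ly6a and Mecom, at log2 ratios of -0.13, -0.59, -0.86 and -2.70. Mecom, at 1.76 and 0.22 TPM, was called. Slamf1 did not pass, at -0.08, and Procr, with 33 and 1 reads, was not tested. Erythroid markers summed to 528 and 253 TPM, nearly all of it Car1 at 512 and 242 TPM, with a log2 ratio of -1.03. Of these 5 markers, 3 passed the adjusted p as lower.

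Beside Pdgfrb, markers of stroma and pericytes were near 0. The 10 of them gave sums of 0.75 and 1.01 TPM, and all 10 lay under 1 TPM in both. Col1a1, Col3a1, Dcn and Cspg4, of which Cspg4 encodes the pericyte proteoglycan NG2, were at 0 in both. Cxcl12, a stromal chemokine, stood at 0.18 and 0.41 TPM and was called as higher in replicate 2, where Pdgfrb was lower. Pdgfrb at 2.14 ± 0.66 TPM was thus higher than the sum of these markers in each library. The 5 endothelium markers summed to 25.2 and 25.4 TPM, nearly all of it Pecam1 at 24.4 ± 0.4 TPM, while Cdh5 was at 0 in both.

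**Figure D2:**
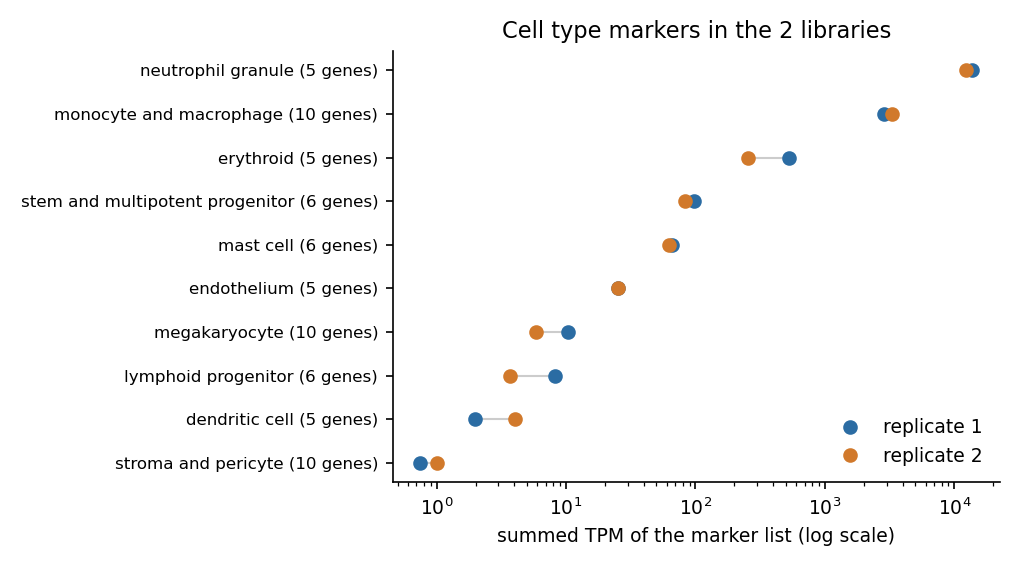
Summed TPM (log axis) of 10 lists of cell type markers in replicate 1 (blue) and replicate 2 (orange), with the number of genes per list in brackets. Neutrophil granule markers, a list that also holds Ms4a3, sum to 13722 and 12343 TPM, and the 10 stroma and pericyte markers to 0.75 and 1.01 TPM.

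Kit was made as 2 main transcripts that differ within the coding sequence at the end of exon 9. Kit-201 (ENSMUST00000005815.6) is the longer form of that exon and Kit-204 (ENSMUST00000144270.3) the shorter. The longer exon runs on for 12 bases, 75639147 to 75639158 on chromosome 5, which adds 4 codons in frame next to the membrane span. The forms are known as GNNK+ and GNNK-, after the 4 amino acids added. The extra bases begin within a codon, so these amino acids are read from the g just before them. The sequences across the junction of exons 9 and 10, from GENCODE M21 on GRCm38, are shown because the split of Kit reads turns on them, with the extra bases in capitals:
Kit-201: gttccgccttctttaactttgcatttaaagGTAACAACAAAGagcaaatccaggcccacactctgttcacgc
Kit-204: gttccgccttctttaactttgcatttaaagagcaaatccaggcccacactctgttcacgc
Outside this site the 2 transcripts differ only at their start, where Kit-204 holds 39 further bases of the first exon, before the start codon. Of 5214 and 5241 bases, 12 and 39 are thus particular to Kit-201 and Kit-204, and the tables do not tell which of these sites the reads came from.

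The balance of the 2 forms differed between the libraries. The long form Kit-201 stood at 32.7 TPM (deposited bounds 29.0 to 34.6) in replicate 1 and at 17.3 TPM (13.3 to 20.1) in replicate 2. The short form Kit-204 stood at 27.9 TPM (25.1 to 30.6) in replicate 1 and at 31.9 TPM (28.3 to 35.2) in replicate 2. Between the libraries the bounds of Kit-201 did not overlap and those of Kit-204 did. Within replicate 1 the bounds of the forms overlapped, and within replicate 2 the short form was apart and higher.

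Of the TPM of these 2 forms, the long form took 53.9% in replicate 1 and 35.2% in replicate 2. The lower level of Kit in replicate 2 thus lay in the transcript assigned as the long form, by a factor of 1.89. How reads are divided between the forms is itself uncertain. The posterior SD of the Kit-201 count was 4.73% of that count in replicate 1 and 10.7% in replicate 2. The deposited bounds hold this uncertainty but not the spread between animals.

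Such a shift was not rare, by a comparison added after seeing the data. Among 3996 protein-coding genes with 2 or more transcripts and at least 10 TPM in both libraries, the share of the leading transcript differed by 10 points or more in 21.8%, and the median difference was 4.26 points. For Kit the leading transcript, Kit-204, differed by 16.2 points, and 9.26% of these genes differed by at least as much.

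The other Kit transcripts are 4 short models that retain part of an intron. Together they held 5.47% of Kit TPM in replicate 1 and 7.89% in replicate 2, but 0.37% and 1.02% of Kit expected counts, since TPM weights short models up. Kit-205 (ENSMUST00000148993.1), with 139 bases that no other Kit transcript holds, stood at 0.50 TPM (0.25 to 0.84) in replicate 1 and 3.40 TPM (2.53 to 4.23) in replicate 2. These values rest on expected counts of 21.7 and 139, and the bounds do not overlap. Kit-206 went the other way, at 1.95 TPM in the first library and 0.81 TPM in the second, with bounds that overlapped.

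**Figure D3:**
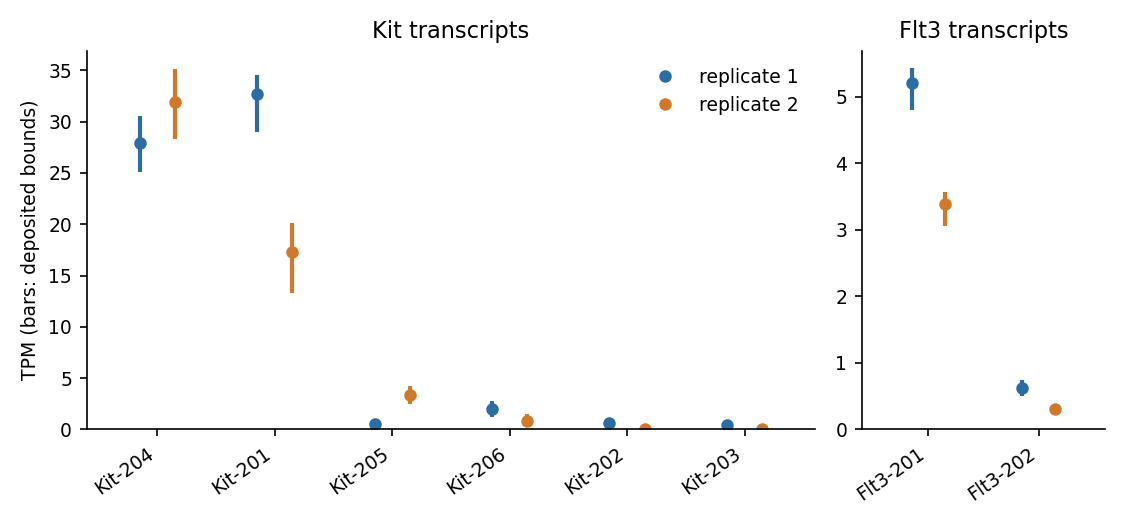
TPM of each Kit transcript (left) and of 2 Flt3 transcripts (right, own axis, the full form first and the early-ending form second) in replicate 1 (blue) and replicate 2 (orange). Points are deposited TPM and bars the deposited bounds. Kit-201 is lower in replicate 2, at 17.3 against 32.7 TPM, while the bounds of Kit-204 overlap between the libraries.

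Flt3 was made mainly as the full receptor transcript, with a lesser form that ends early. The full form (ENSMUST00000049324.10), of 24 exons, took 90.4% ± 1.9 of Flt3 TPM (n = 2). The early-ending form (ENSMUST00000110549.1) has the first 9 exons of that transcript and then a last exon of 2519 bases, 147362557 to 147365075, which lies in the intron of the full form that follows. It is annotated as a processed transcript, without a coding sequence. The sequences after exon 9, from GENCODE M21 on GRCm38 and the minus strand, show where the forms part, with the bases that differ by form in capitals:
Flt3 full form: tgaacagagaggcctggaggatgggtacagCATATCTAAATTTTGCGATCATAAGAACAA
Flt3 early-ending form: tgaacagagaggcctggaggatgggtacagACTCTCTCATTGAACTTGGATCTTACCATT
The early-ending form stood at 0.63 TPM (0.50 to 0.74) in replicate 1 and at 0.30 TPM (0.22 to 0.39) in replicate 2. Its share of Flt3 was 10.7% and 8.22%. Unlike in Kit, both main forms of Flt3 were lower in replicate 2 with bounds that did not overlap, and their shares moved by under 3 points.

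An antisense gene, Gm26597, overlaps the span of Flt3 by 936 bases. It stood at 0.31 and 0.13 TPM, from 26 and 10 reads, few beside the 1293 and 754 of Flt3. Whether counting used strand is not stated. The Flt3 counts were whole, with a posterior SD of 0 in both libraries, so no Flt3 read was divided with another gene.

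Csf1r and Pdgfrb each had a single transcript that took nearly all of the level. Csf1r-202 (ENSMUST00000115268.3) took 97.5% and 100% of Csf1r TPM. It has 1015 bases that the other Csf1r transcript does not hold. Hmgxb3, a gene of the opposite strand, overlaps the span of Csf1r by 873 bases. Csf1r was the only member whose expected count was not whole, 4070.84 in replicate 1 and 5031.88 in replicate 2. Added to those of Hmgxb3, 958.16 and 955.12, the sums were whole, 5029 and 5987, so reads were divided between these genes. The posterior SD of the Csf1r count was 5.3 and 4.32 reads, small beside the difference between the libraries. Pdgfrb-201 (ENSMUST00000025522.6) took 100% of Pdgfrb TPM in both libraries, while the upper bound of Pdgfrb-202, at 0 TPM, reached 0.47 TPM in replicate 2.

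The ligands of these receptors were low. Of 8 ligand genes 7 were matched, and 0 reached 1 TPM in both libraries, against 46.2% of all protein-coding genes. Csf1, a ligand of CSF1R, was the highest at 0.89 TPM in replicate 1 and 1.98 TPM in replicate 2, with a log2 ratio of 0.77. It was higher in the library in which Csf1r was higher. Il34, the other ligand of CSF1R, was at an expected count of 0 in both.

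Kitl, which encodes stem cell factor, stood at 0 TPM in replicate 1 and 0.05 TPM in replicate 2, from 17 reads. Pdgfd and Pdgfa, ligands of the platelet-derived growth factor receptors, stood at 0.33 ± 0.11 and 0.20 ± 0.13 TPM. Pdgfc had 18 reads in replicate 1 and 0 in replicate 2, and Pdgfb 0 in both. Flt3l had no match and was not analysed here. By the exact binomial test 0 of the 2 ligands tested, Csf1 and Pdgfd, were called, and 1 had an unadjusted p under 0.05. Among all genes tested, 7.66% were called and 59.0% passed the adjusted p, so 2 genes show little here.

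The related receptor genes of endothelium were low too. Tie1 stood at 1.80 ± 0.01 TPM, Flt1, a receptor of vascular endothelial growth factor, at 1.09 ± 0.27 TPM, and Tek at 0.27 ± 0.01 TPM. Kdr and Flt4 stood at 0.03 ± 0.02 and 0.02 ± 0.01 TPM. Pdgfrb, the lowest class III receptor with reads, lay above Tie1 in replicate 1 and below it in replicate 2.

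Adaptors and kinases that carry the receptor signal were present nearly throughout. Both libraries held 34 of 35 genes at 1 TPM or more, beside 46.2% of all protein-coding genes. The list's median was 15.4 TPM, against 0.585 TPM over all protein-coding genes. Among the highest were the kinase gene Mapk3 at 39.2 ± 5.2 TPM, Pik3r1, a regulatory subunit of phosphoinositide 3-kinase, at 36.8 ± 0.4 TPM, and the kinase gene Akt1 at 35.1 ± 0.2 TPM. The lowest was Src, with 24 reads in replicate 1 and 0 in replicate 2, while its relative Lyn stood at 26.7 ± 1.9 TPM. By the exact binomial test 0 of 34 were called and 22 had an unadjusted p under 0.05, with 14 past the adjusted p alone as higher in replicate 2 and 7 as lower. Over all genes tested these shares were 7.66% called, 29.4% higher and 29.7% lower. The list's median log2 ratio was 0.06, beside 5.7e-05 over all genes tested.

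Inhibitors of receptor signalling were also mostly present, at a lower median level. Here 18 of 22 genes were at 1 TPM or more in each library, beside 46.2% of all protein-coding genes, and the median was 7.74 TPM. Ptpn6, the phosphatase SHP-1, stood at 49.0 ± 1.1 TPM, the RAS inhibitor Rasa1 at 38.2 ± 0.2 TPM and the adaptor gene Sla at 34.6 ± 5.0 TPM. The lowest was Spry4, an inhibitor that ERK signalling induces, at 0.24 and 0.05 TPM from 67 and 12 reads. It was the only one of 22 called, at a log2 ratio of -2.16. By the adjusted p alone 7 were higher and 7 lower in replicate 2, and the median log2 ratio was -0.03. All genes tested gave 7.66% called, 29.4% higher and 29.7% lower.

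Genes that respond to ERK signalling covered a wide range. Here 8 of 12 were at 1 TPM or more in each library, beside 46.2% of all protein-coding genes, and the median was 3.41 TPM. Myc led at 145 ± 14 TPM, followed by the immediate early genes Fos at 49.4 ± 14.9, Ier3 at 14.5 ± 4.0 and Egr1 at 13.9 ± 0.5 TPM. The lowest was Etv4 at 0.02 TPM in each library, from 3 and 2 reads. Fosl1 was the only one of 10 called, as higher in replicate 2 at a log2 ratio of 1.17 from 21 and 45 reads. By the adjusted p alone 5 of the 10 tested were higher and 2 lower in replicate 2, and the median log2 ratio was 0.13. Among all genes tested, 7.66% were called, 29.4% were higher and 29.7% lower.

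Transcription factors known to act on these receptor genes were present in nearly all cases. At 1 TPM or more in each library were 13 of 14, beside 46.2% of all protein-coding genes, and the median was 16.4 TPM. Myb stood at 296 ± 33 TPM, Lmo2 at 186 ± 13 TPM, Spi1 at 86.4 ± 16.0 TPM and Runx1 at 42.6 ± 0.4 TPM, and the lowest was Egr2 at 0.40 ± 0.08 TPM. Gata1, at 10.8 and 4.48 TPM, was the only one of 14 called, at a log2 ratio of -1.23. By the adjusted p alone 8 were lower in replicate 2 and 4 higher, and the median log2 ratio was -0.12. The background was 7.66% called, 29.7% lower and 29.4% higher.

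Within that list the factors differed in direction. Beside Gata1, those lower in replicate 2 were Gata2, Tal1, Lmo2, Ldb1 and Myb, with log2 ratios of -0.64, -0.33, -0.10, -0.14 and -0.18, and Hoxa9 and Meis1, at -0.38 and -0.99. Those higher were Spi1, Irf8, Runx1 and Cebpa, at 0.39, 0.61, 0.06 and 0.15. Mitf, a known regulator of Kit, and Egr2 did not pass the adjusted p, at 0.16 and 0.24. No relation between these genes and the receptors was tested.

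Genes for the shedding and cleavage of receptors were at middle to high levels. All 5 reached 1 TPM in both libraries, as did 46.2% of all protein-coding genes. The sheddase genes Adam10 and Adam17 stood at 43.6 ± 0.3 and 12.6 ± 0.2 TPM. Ncstn and Psen2, of the gamma-secretase complex, stood at 28.3 ± 0.1 and 7.93 ± 0.11 TPM. By the exact binomial test 0 of 5 were called, 1 had an unadjusted p under 0.05, and 1 passed the adjusted p as higher in replicate 2. For all genes tested the shares were 7.66% called and 29.4% past the adjusted p as higher.

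**Figure D4:**
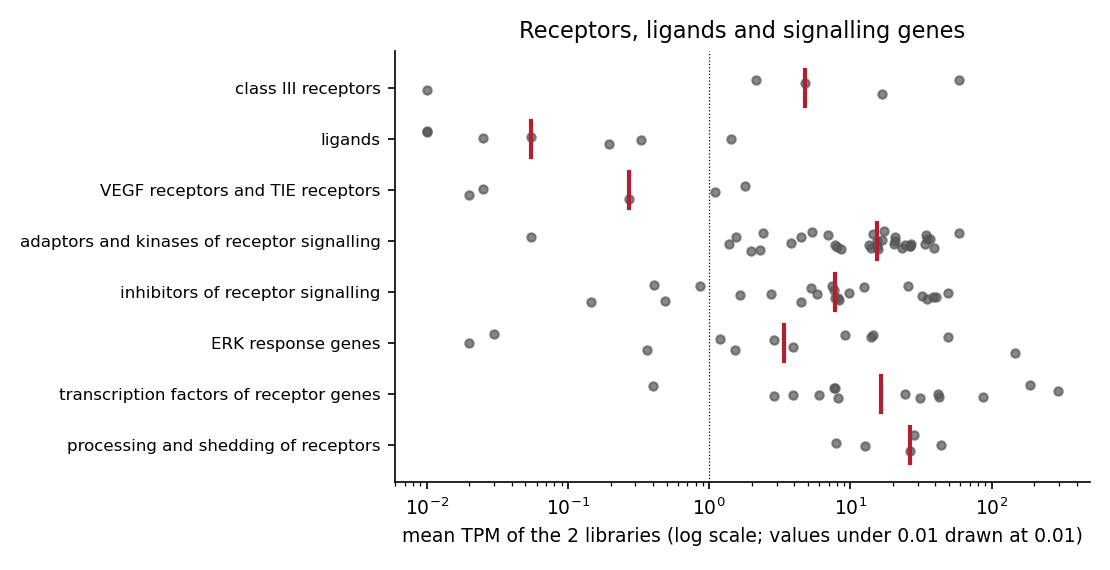
Mean TPM of the 2 libraries (log axis) for each gene (grey points, spread vertically for sight) of the receptor list and 7 related lists, with the median of each list as a red line and a dotted line at 1 TPM. The 7 matched ligands lie to the left, with a median of 0.06 TPM, and the adaptors and kinases to the right, with a median of 15.4 TPM.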

How the data were processed

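Per the deposited file lists, reads were aligned to mm10 and quantified against GENCODE M4, each library on its own. The aligner and quantifier were not given in the sources used here, nor were strand and layout of reads. Deposited expected counts estimate how many reads each gene or transcript gave. The authors' TPM values are scaled to a fixed total over all rows, and the deposited FPKM values were not used for results. The deposited percent values give each transcript's part of its gene's TPM. The deposited score columns hold credibility bounds, whose level is not given, and posterior SDs of counts. GENCODE M21 (GRCm38, equal to mm10) gave symbols, positions and transcripts, matched by identifier without version (98.0% of Ensembl rows).

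Expected counts were rounded and compared by an exact binomial test against the TMM library ratio of edgeR 4.0.16 after filterByExpr, with Benjamini-Hochberg adjustment, in R 4.3.3 and scipy 1.17.1. The test was checked on simulated data that held counting error only, apart from genes set to differ. That check does not cover other spread between libraries. A gene was called if its adjusted p was under 0.05 and its log2 ratio at least 1 in size. Nothing shows that the libraries come from separate animals. Members and gene lists were chosen with earlier results of these data known. The text names all members, transcripts of 5% or more, all ligands, and of each other list of related genes the 4 highest, the lowest and the called genes; a few others were named after their values were seen, and a few genes that the rule names are not reported here. Alternatives were the posterior mean TPM, a rescaled TPM, DESeq2 1.42.0 size factors, total counts, no filter, counts divided by 4, a prior count of 0.5, shares of counts and each library alone.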

Additional observations from a re-analysis of the deposited data

How the results depend on the processing

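With TPM rescaled over Ensembl genes other than mitochondrial genes, small RNAs and Gm42418, levels were 129 TPM for Kit, 36.7 for Csf1r, 10.5 for Flt3 and 4.68 for Pdgfrb, in the same order, since that scale is about 2.2 times larger. By posterior mean TPM, Pdgfra stood at 0.005 TPM and Pdgfrb-201 took 94.0% of Pdgfrb. Genes past both the adjusted p and the log2 ratio numbered 3385 with no filter and 521 with counts divided by 4, and genes past the adjusted p alone 3530 with counts divided by 4, against 1096 and 8446. The signs of the 4 receptor ratios and their side of the adjusted p were the same under the other scalings, filter, prior count and divided counts. The highest adjusted p was 0.0019, for Pdgfrb with divided counts. In each library alone, the share of Kit-201 was 32.4% to 51.0% and that of Kit-204 43.5% to 59.7%, and levels were 53.5 to 64.1 TPM for Kit, 14.4 to 19.1 for Csf1r, 3.69 to 5.85 for Flt3 and 1.67 to 2.60 for Pdgfrb. No paired analysis was possible because the labels give 1 group. With 2 libraries, no spread between conditions can be estimated.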

Other observations

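Neighbours of the receptor genes on the chromosome had unlike levels. Pdgfra lies 376701 bases from Kit on the same strand of chromosome 5, and Kdr, on the other strand, 276105 bases beyond Kit. Pdgfra was at 0 and Kdr at 0.04 and 0.01 TPM, beside Kit at 64.1 and 53.5 TPM. The next protein-coding gene beyond Kdr, Srd5a3, stood at 19.7 ± 3.2 TPM. Pdgfrb and Csf1r lie 15537 bases apart on 1 strand and stood at 2.60 and 14.4 TPM in replicate 1. The homeobox gene Cdx1 next to Pdgfrb was at 0 in both libraries, as was Cdx2, which lies near Flt3. Pan3, the gene on the other side of Flt3, stood at 157 ± 1.5 TPM, and Flt1 beyond it at 0.90 and 1.28 TPM.

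The genes closest in level to a receptor over the 2 libraries, by distance of log2(TPM + 1), were Sap18b, Rbm38 and Nup85 for Kit and included I830077J02Rik and Pet100 for Csf1r. For Flt3 they were Nprl2, Zfp346 and Actr5, and for Pdgfrb they included Atg14 and Eno3. The distances of the genes named ran from 0.016 for Atg14 to 0.046 for Actr5. Only 2 libraries enter, so the likeness is one of level and of 1 ratio.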
